A study of Homo sapiens with 24 samples.

Results

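RNA-Seq of cells labelled as MDA-MB-231 overexpressing KIF20A (KIF20A OE) was examined. It was compared with RNA-Seq of cells labelled as the same line carrying an empty control vector (EV). These 6 libraries, 3 per group, were chosen by their labels from the 24 samples of the series, and all genes of their table were examined. The series asks how KIF20A acts in triple-negative breast cancer (TNBC), and also holds sorted fractions of Hs578T and HCC70 cells and MDA-MB-231 cells with a control sgRNA (sgCtrl) or a KIF20A sgRNA. Both groups used here are labelled as MDA-MB-231, a breast cancer line. The sample list used here numbers both as batch 4, a number that the sample titles do not give. The genotype and treatment labels name the empty control vector in one group and KIF20A overexpression in the other. The methods describe lentivirus packaged in a derivative of HEK293 cells, puromycin selection of the infected cells and triplicate biological samples, but the promoter that drove KIF20A in the sequenced cells, and whether the cells were a pool or a clone, are not given in the sources used here. The markers of the labelled line were nearly absent from the 3 libraries labelled KIF20A OE, as set out below, so the comparison is described throughout as one of 2 cell states or origins, and no difference is credited to KIF20A.

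KIF20A is a kinesin-6 motor that carries the chromosomal passenger complex to the spindle midzone and is needed for cytokinesis. MDA-MB-231 is a mesenchymal-like TNBC line with high CD44, vimentin and AXL, and a homozygous loss on the short arm of chromosome 9 that takes CDKN2A with it. HEK293 cells, the parent of that packaging line, derive from embryonic kidney and are known for high IRS4 and for RNAs of neuronal and developmental genes.

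The 6 libraries held 15971297 to 22182293 reads over 23792 listed genes. A read was found for 20194 to 20256 genes per EV library and for 21724 to 22129 genes per library labelled KIF20A OE. Levels are given as rescaled CPM, which is the deposited CPM (reads scaled to a fixed library total, with no length term) divided by 1 median-of-ratios factor per library. These factors ran from 0.847 to 0.912 in EV and from 1.12 to 1.151 in KIF20A OE, so leaving CPM unscaled raises KIF20A OE relative to EV. Fold changes are differences of log2(rescaled CPM + 1), which understate the change of low genes, and they were tested by limma with Benjamini-Hochberg adjustment over all tested genes. Of 15202 genes tested, 10148 (66.8%) had an adjusted p under 0.05, with 5135 (33.8%) higher and 5013 (33.0%) lower in KIF20A OE and a median fold change of 0.03. Without rescaling, 7055 of 15265 tested genes were higher and 3579 lower, and the median of all genes moved to 0.37. Since 66.8% of all tested genes were called, a count within a gene group is read below against 33.8% and 33.0%. A gene without a read in 1 group passed the filter, a mean of at least 1 rescaled CPM, only through the other group. Its direction was thus fixed in advance. A count given without rescaling is read against 7055 higher and 3579 lower of 15265. In bulk RNA, fewer cells of a type and less RNA per cell cannot be told apart.

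KIF20A (chr5:138178719-138187723, GRCh38, plus strand) was listed at 119, 162 and 136 rescaled CPM in EV and at 1187, 234 and 800.3 in KIF20A OE. The groups did not overlap, but the second KIF20A OE library lay only 1.45-fold above the highest EV library, and the highest and lowest KIF20A OE libraries differed 5.07-fold. The log2 fold change was 2.13 ± 0.52 (SE, n = 3 per group, limma with Benjamini-Hochberg adjustment, adjusted p = 0.00670), and a two-sided exact permutation test gave p = 0.1, the smallest that 3 against 3 samples allow. Without the second KIF20A OE library the log2 fold change was 2.82, and without the first it was 1.66. The table does not separate reads of a transgene from reads of the chromosomal gene.

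Of 18 mitotic kinesins and midzone proteins of cell division tested, 4 were higher, KIF20A among them, and 7 were lower; the median log2 fold change was -0.11 (5 higher, 4 lower and a median of 0.25, of the opposite sign, without rescaling; the median was 0.03 without the second EV library and -0.31 without the third). KIF20B, the closest paralogue of KIF20A, was at 92.8 to 143 rescaled CPM in EV and 73.7 to 75.4 in KIF20A OE, and fell by 0.60 ± 0.16 on the log2 scale. KIF23, a further kinesin-6 motor, which works with RACGAP1 in the centralspindlin complex, had 87.0 to 146 in EV and 112 to 134 in KIF20A OE, with overlapping groups and no call. ANLN, the anillin of the cleavage furrow, was listed at 449, 624 and 507 in EV and 115, 145 and 151 in KIF20A OE, and fell by 1.93 ± 0.16 without overlap. ECT2, the exchange factor that activates RhoA at the furrow, fell by 0.89 ± 0.13, and the citron kinase gene CIT by 1.25 ± 0.14. KIF22, a chromosome-arm kinesin, rose by 0.51 ± 0.14.

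**Figure D1:**
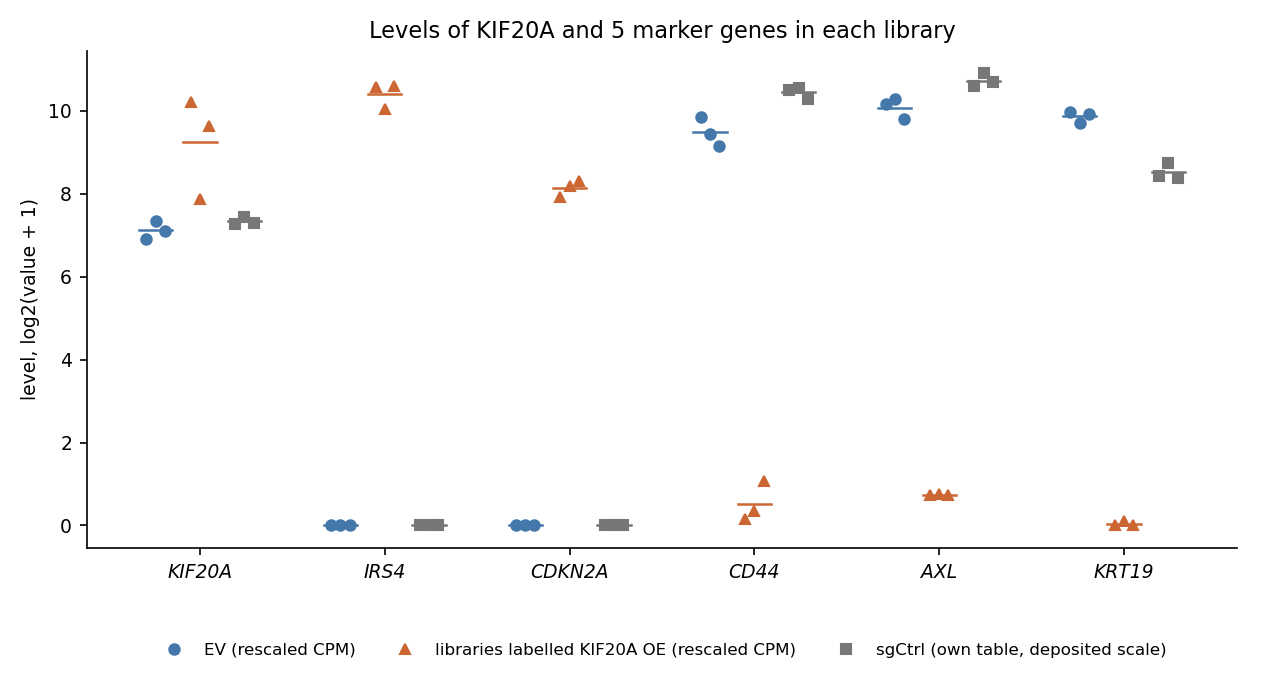
Level of KIF20A and 5 marker genes in each library, as log2(value + 1), with a bar at the mean of 3 libraries. EV and KIF20A OE are rescaled CPM, and sgCtrl comes from a separately normalized table and is shown for its level only. IRS4 and CDKN2A had no read in any EV or sgCtrl library, while CD44, AXL and KRT19 were at or below 1.10 rescaled CPM in every library labelled KIF20A OE.

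A list of 25 genes known for high expression in MDA-MB-231, most of them mesenchymal, surface and protease genes, was set beside the labels. It was written with earlier results of these data known and holds the given markers CD44, AXL and KRT19. Its counts are therefore a description and not an independent check of the labelled line. Of 24 tested members, 24 were lower in KIF20A OE, and IL6, low in both groups, was not tested. The median log2 fold change was -7.02, or -7.18 with the gene that had no read in KIF20A OE set at its bound. Their summed level was 18399 to 21441 rescaled CPM in EV, 665 to 1102 in KIF20A OE, and 17371 to 19655 in sgCtrl on the scale of that table. CD44, the hyaluronan receptor used to sort breast cancer stem cells, was at 931, 696 and 573 in EV and 0.110, 0.274 and 1.10 in KIF20A OE. AXL, a receptor tyrosine kinase for GAS6, was at 1142, 1253 and 889 in EV and 0.661, 0.705 and 0.669 in KIF20A OE. KRT19, a keratin of simple epithelia, was at 1014, 842 and 965 in EV and 0, 0.0783 and 0 in KIF20A OE, and KRT81 had no read in KIF20A OE. CD44, AXL and KRT19 were high in all 3 EV libraries and near 0 in all 3 libraries labelled KIF20A OE. KRT81 was lower than these in EV, at 28.8, 14.1 and 26.4.

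Some genes of the list remained at higher levels in KIF20A OE. VIM, the mesenchymal intermediate filament, was listed at 3230.1, 3063 and 2762 in EV and 682, 302 and 485 in KIF20A OE, and fell by 2.70 ± 0.27. MSN, the membrane-cytoskeleton linker moesin, fell by 3.30 ± 0.25 (range 215 to 307 in KIF20A OE), and MET, the receptor of hepatocyte growth factor, by 2.28 ± 0.14 (range 42.3 to 58.1 in KIF20A OE). Each was still lower in every KIF20A OE library than in every EV library. The traces of the other genes differed between the KIF20A OE libraries without a common order, CD44 being highest in the third library and MMP14, a membrane-bound matrix protease, in the first, at 4.46, 1.76 and 2.29.

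A list of 12 genes known from HEK293 cells was given because the study packaged its virus in a derivative of this line. This list too was written with earlier results of these data known, and it holds the given markers IRS4 and CDKN2A. 10 of the 12 members were higher in KIF20A OE and 1 was lower, with a median of 5.39, or 5.65 with the 5 genes without a read in EV set at their bound. The summed level was 534 to 649 rescaled CPM in EV and 2982 to 3563 in KIF20A OE. IRS4 (chrX:108719946-108736563, GRCh38, minus strand), an insulin receptor substrate first described in HEK293 cells, had 0, 0 and 0 in EV and 1540.2, 1058 and 1558 in KIF20A OE, at least 7899.9-fold higher when EV is set at the level of 3 reads per library. IGF2BP1, an oncofetal mRNA-binding protein, was at 0.225, 0 and 0 in EV and 287, 334 and 246 in KIF20A OE. LIN28B, which blocks let-7 maturation, had 0, 0 and 0 in EV and 60.1, 87.8 and 52.9 in KIF20A OE, at least 382-fold higher. CKB, the brain-type creatine kinase, was already present in EV at 204 to 229 and rose by 2.20 ± 0.13. The list did not move as 1 block: NR2F1, an orphan nuclear receptor, had 129, 62.4 and 74.4 in EV and 74.4, 142 and 52.8 in KIF20A OE with overlapping groups, and PEG10, an imprinted gag-like gene, fell (236 to 357 in EV and 0 to 0.940 in KIF20A OE). The part of cells of another origin in these differences was not tested.

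Markers of other cell types were also examined. Of 8 epithelial genes tested, 7 were lower and 1 higher. CDH1, the epithelial cadherin, was the one that rose (0 to 0.773 in EV and 1.76 to 3.97 in KIF20A OE). Keratins fell in 10 of 11 tested genes (median -1.96; -3.18 without the third EV library, -3.69 by edgeR and -3.72 by DESeq2), though KRT8 and KRT18, the keratin pair of simple epithelia, kept 203 to 289.9 and 108 to 126 rescaled CPM. Fibroblast genes split, with 2 higher (1 without the first EV library) and 2 lower of 4, and their sums overlapped at 31.3 to 111 in EV and 71.3 to 89.2 in KIF20A OE. COL1A1, 1 of the 2 higher, lost its call without the first EV library and also without any 1 of the KIF20A OE libraries. Leukocyte genes summed to 5.09 to 11.9 in EV and 2.25 to 5.51 in KIF20A OE, PTPRC (CD45) had no read in KIF20A OE, and none of 2 tested was called.

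**Figure D2:**
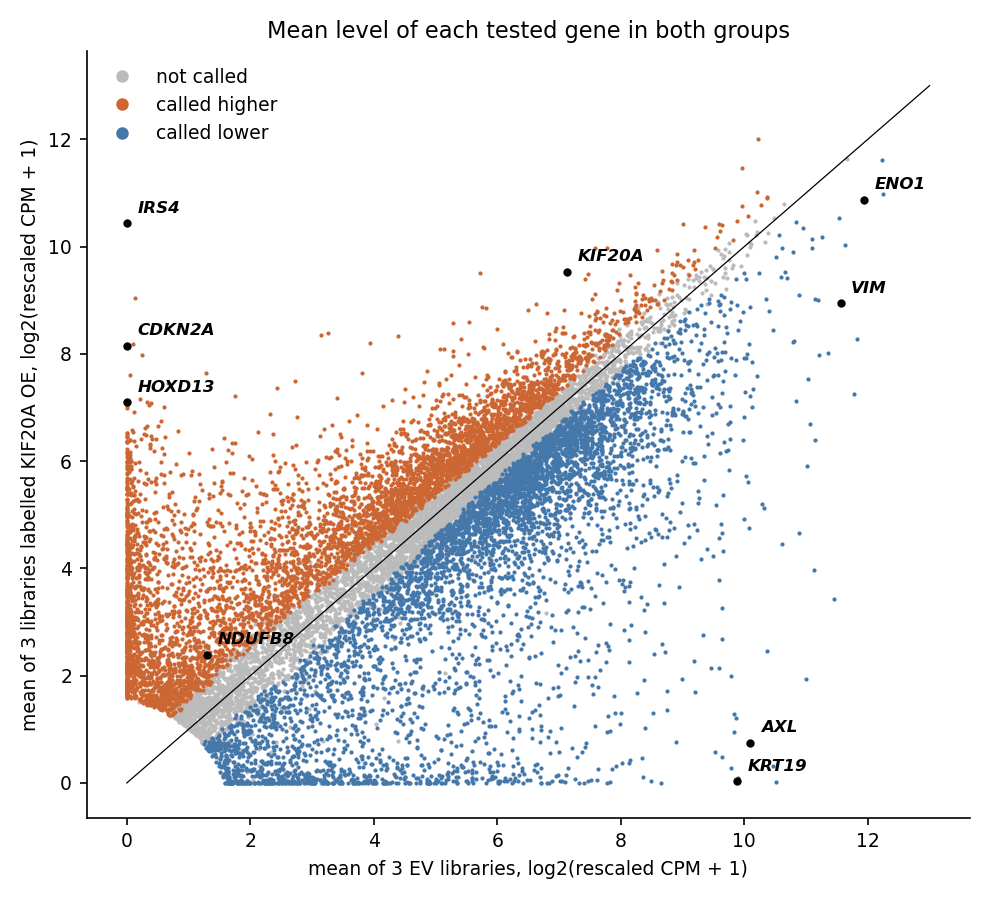
Mean level of each tested gene in the 3 EV libraries (horizontal) and the 3 libraries labelled KIF20A OE (vertical), both as log2(rescaled CPM + 1), with equal levels on the line. Genes called higher (5135) and lower (5013) spread on both sides of the line, and columns of genes lie along each axis, where IRS4, CDKN2A and HOXD13 (no read in EV) are named.

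Genes detected in only 1 group were counted with at least 10 rescaled CPM in every library of that group and no more than 3 reads in any library of the other. There were 191 such genes in KIF20A OE and 105 in EV, and 110 and 46 of them had no read at all in the other group. A count of 3 reads stood for 0.164 to 0.193 rescaled CPM in EV and 0.117 to 0.165 in KIF20A OE. The sgCtrl libraries, labelled MDA-MB-231, normalized separately and of greater depth, were set beside these lists. Of the 105 genes found only in EV, 60 had at least 10 and 93 at least 1 in every sgCtrl library. Of the 191 found only in KIF20A OE, 1 had at least 10 (NDRG2) and 132 had no more than 3 reads in every sgCtrl library. With 1 rescaled CPM in place of 10 as the lower limit, the counts were 698 and 327.

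Among the genes found only in EV were secreted and surface proteins. CST1, a cystatin whose reads its near copies CST2 and CST4 may share, had 1476, 879 and 2032 in EV and 0, 0.0392 and 0 in KIF20A OE. The sgCtrl libraries had far less CST1 than EV, at 20.0, 23.2 and 26.3 on the scale of their own table. CDCP1, a transmembrane substrate of SRC kinases, had 1044, 911 and 898 in EV and 0.110, 0.0783 and 0 in KIF20A OE. TM4SF1, a tetraspanin-like surface protein, was at 329 to 383 in EV and 0 to 0.0956 in KIF20A OE, and OSMR, the receptor of oncostatin M, at 132 to 236 in EV and 0 to 0.110 in KIF20A OE. Also found only in EV were, among others, the lipopolysaccharide receptor TLR4 (41.3 to 87.2 against no read), the immunoproteasome subunit PSMB8 (42.5 to 55.7 against 0 to 0.0956) and the inflammatory caspase CASP4 (25.6 to 56.8 against 0 to 0.0956). These 5 genes after CDCP1 were chosen after their values were seen.

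Among the genes found only in KIF20A OE were UCHL1, NID1 and ZNF711. UCHL1, a neuronal ubiquitin hydrolase, had no read in EV and 119, 119.7 and 148 rescaled CPM in KIF20A OE, at least 736-fold higher. NID1, the basement membrane protein nidogen, had 0.112, 0 and 0 in EV and 205, 175 and 197 in KIF20A OE. ZNF711, an X-linked zinc finger gene, was at 124, 116 and 139 in KIF20A OE and at 0 in EV, at least 719-fold higher. Of the 191 genes, 19 (9.95%) lay on chromosome X, against 3.56% of all tested genes and 1 of the 105 genes found only in EV.

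Genes of the short arm of chromosome 9 differed by position. Between FOCAD and ELAVL2 (chr9:20658309-23826337, GRCh38), a stretch at 9p21 that many tumours lose, 8 of 8 genes of a list of known genes there that could be tested were higher in KIF20A OE, and 6 of the 8 had no read in any EV library. Those 6, and KLHL9, passed the filter only through KIF20A OE, so their direction was fixed in advance and the count is a description only. CDKN2A is also 1 of the given markers. CDKN2A (chr9:21967752-21995301, minus strand) encodes the CDK4/6 inhibitor p16 and the p53 regulator ARF. It had 0, 0 and 0 rescaled CPM in EV and 243, 292 and 316 in KIF20A OE, at least 1616-fold higher. CDKN2B, which encodes p15, a further inhibitor of CDK4/6, had 13.1, 11.8 and 10.9 in KIF20A OE and no read in EV, at least 68.1-fold higher. MTAP, the enzyme that salvages methionine from methylthioadenosine, had 19.9, 21.4 and 20.2 in KIF20A OE and no read in EV, at least 117-fold higher. ELAVL2, a neuronal RNA-binding protein, had 13.2, 14.5 and 13.8 in KIF20A OE and no read in EV, at least 78.8-fold higher.

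Toward lower coordinates, FOCAD, its antisense gene FOCAD-AS1 (2, 4 and 0 reads) and KLHL9 had reads in EV. KLHL9, an adaptor of a CUL3 ubiquitin ligase, was at 0.281, 0.438 and 0.129 in EV and 138, 128 and 128 in KIF20A OE. FOCAD, the focadhesin gene, was at 4.55, 5.42 and 6.12 in EV and 72.2, 83.8 and 70.9 in KIF20A OE, and rose by 3.59 ± 0.16 on the log2 scale. CDKN2B-AS1 (ANRIL), DMRTA1 and HACD4 had no read in EV and reached 4.59 to 6.56, 2.70 to 5.31 and 0.220 to 0.392 in KIF20A OE, the last too low to be tested. CDKN2B-AS1 overlaps the first exon region of CDKN2A on the other strand, and whether the counting used strand is not given in the sources used here, so its level is uncertain. The sgCtrl libraries had no read of KLHL9, MTAP, CDKN2A, CDKN2B, DMRTA1 or ELAVL2. Of the genes outside the stretch, MLLT3, next to FOCAD, was at 36.0, 29.7 and 31.9 in EV and 53.5, 64.1 and 53.4 in KIF20A OE, TUSC1 at 25.4, 25.0 and 31.2 in EV and 50.6, 53.4 and 57.6 in KIF20A OE, and PLAA at 82.1, 75.9 and 81.5 in EV and 73.6, 74.6 and 65.6 in KIF20A OE, so that these 3 were read in both groups. Others farther out differed: SH3GL2 had no read in EV and 68, 135 and 98 reads in KIF20A OE, SLC24A2 had no read in EV and 24, 14 and 2 reads in KIF20A OE, and ADAMTSL1 went the other way, with 122, 121 and 124 rescaled CPM in EV and 0.551, 0.940 and 0.574 in KIF20A OE. MOB3B, on the other side, was at 0.899, 0.657 and 4.32 in EV and 9.75, 12.8 and 10.5 in KIF20A OE. These outside genes were chosen after their values were seen. The interferon genes IFNB1, IFNA1, IFNA2 and IFNE of the region were not in the table.

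**Figure D3:**
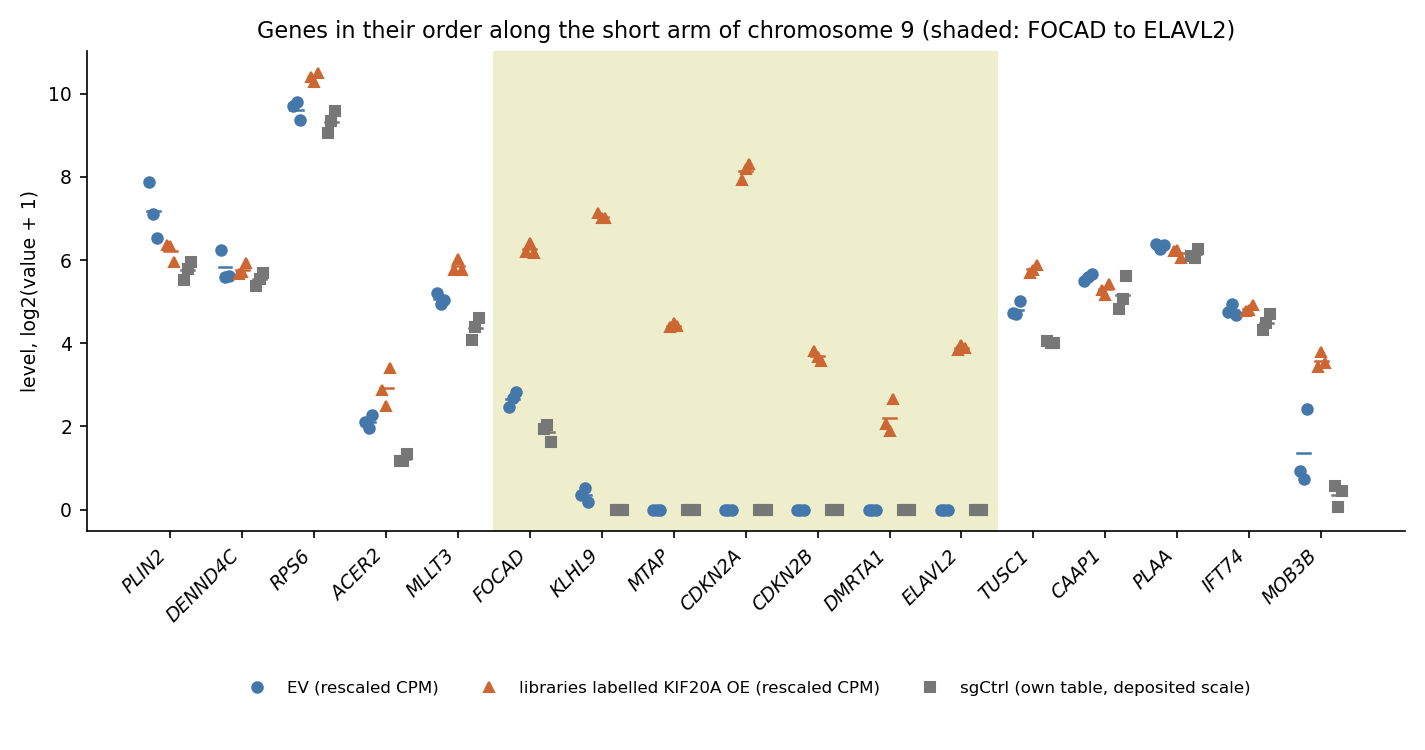
Level, as log2(value + 1), of protein-coding genes listed at 1 or more in either group, in their order along the short arm of chromosome 9, with a bar at the mean of 3 libraries. From MTAP to ELAVL2 no EV or sgCtrl library had a read, while every library labelled KIF20A OE did, and the 5 genes plotted on each side of the shaded stretch had reads in every EV and KIF20A OE library.

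The sequences just before the starts of 6 genes read almost only in 1 group are shown, so that their promoters can be read beside these values. Each is the 250 bases upstream of a start in RefSeq (GRCh38.p14), 5′ to 3′ on the strand of the gene, with each CG dinucleotide, the site of DNA methylation, in capitals. CG was searched as the letters CG, which read the same on both strands. Of all 35116 windows of the promoter table, 93.9% held at least 1 CG and 52.2% at least 10. The first 3 are genes of 9p21 (KLHL9 at chr9:21335405-21335654, minus strand; MTAP at chr9:21802386-21802635, plus strand; CDKN2A at chr9:21995325-21995574, minus strand, the start of its upstream transcript). IRS4 (chrX:108736564-108736813, minus strand) and HOXD13 (chr2:176092471-176092720, plus strand) were also read only in KIF20A OE, and AXL (chr19:41218973-41219222, plus strand) was high in EV.
KLHL9: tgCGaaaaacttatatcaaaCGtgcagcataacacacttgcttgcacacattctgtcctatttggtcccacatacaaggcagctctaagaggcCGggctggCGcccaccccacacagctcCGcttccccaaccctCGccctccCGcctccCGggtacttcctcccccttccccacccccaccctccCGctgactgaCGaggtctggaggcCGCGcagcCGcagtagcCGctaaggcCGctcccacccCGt
MTAP: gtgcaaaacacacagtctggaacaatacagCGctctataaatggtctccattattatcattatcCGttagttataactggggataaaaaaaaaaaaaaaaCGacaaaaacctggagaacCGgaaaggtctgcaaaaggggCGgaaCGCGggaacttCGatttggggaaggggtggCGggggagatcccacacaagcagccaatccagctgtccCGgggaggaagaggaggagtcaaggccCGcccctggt
CDKN2A: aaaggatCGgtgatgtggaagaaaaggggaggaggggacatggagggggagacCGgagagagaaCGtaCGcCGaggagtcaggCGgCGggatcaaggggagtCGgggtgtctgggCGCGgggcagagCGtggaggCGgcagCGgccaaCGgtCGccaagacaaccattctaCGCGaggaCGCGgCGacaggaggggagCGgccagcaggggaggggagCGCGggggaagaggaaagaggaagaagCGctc
IRS4: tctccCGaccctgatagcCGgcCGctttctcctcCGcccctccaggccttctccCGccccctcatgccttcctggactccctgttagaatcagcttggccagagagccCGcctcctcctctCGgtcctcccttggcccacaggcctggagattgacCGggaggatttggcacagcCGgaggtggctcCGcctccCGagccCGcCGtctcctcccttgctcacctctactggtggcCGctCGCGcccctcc
HOXD13: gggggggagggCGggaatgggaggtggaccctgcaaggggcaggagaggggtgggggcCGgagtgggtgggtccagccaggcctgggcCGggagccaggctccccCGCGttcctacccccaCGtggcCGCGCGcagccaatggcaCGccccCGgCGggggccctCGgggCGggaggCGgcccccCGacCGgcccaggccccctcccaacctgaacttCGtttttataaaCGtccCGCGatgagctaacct
AXL: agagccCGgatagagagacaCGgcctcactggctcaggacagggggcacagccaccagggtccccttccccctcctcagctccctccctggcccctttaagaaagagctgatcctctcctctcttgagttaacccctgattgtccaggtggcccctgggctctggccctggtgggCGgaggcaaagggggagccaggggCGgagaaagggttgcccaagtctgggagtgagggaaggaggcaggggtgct
The windows of KLHL9, MTAP, CDKN2A, IRS4 and HOXD13 held 16, 11, 24, 16 and 21 CG, and that of AXL held 4. The median over all windows was 11. Methylation was not measured, and KRT19 had no window in the table.

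Among the genes with the largest differences, the 10 that fell most included CST1, NT5E, KRT19, CDCP1, AXL, PLAU, MMP14, CD44 and S100A6. NT5E, the ecto-enzyme CD73 that makes adenosine, was at 1407, 1441 and 1374 in EV and 0.110, 0.235 and 0.382 in KIF20A OE. PLAU, the urokinase protease, was at 741, 756 and 895 in EV and 0.220, 0.509 and 0.478 in KIF20A OE. Both genes were high in every EV library and below 1 rescaled CPM in every KIF20A OE library. The 10 that rose most were IRS4, AMOT, CDKN2A, IGF2BP1, SLC16A1, NID1, HOXD13, UCHL1, ZNF711 and PTGFRN. AMOT, a scaffold that holds YAP in the cytoplasm, was at 0.281, 0 and 0 in EV and 575, 328 and 671 in KIF20A OE. SLC16A1, the lactate and pyruvate carrier MCT1, was at 0.225, 0.219 and 0.129 in EV and 246, 274 and 236 in KIF20A OE. SLC16A3, the lactate exporter MCT4, went the other way (619.5 to 805 in EV and 3.25 to 3.54 in KIF20A OE).

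HOX genes, which set position along the body axis, differed nearly as a block. Of 36 tested, 35 were higher in KIF20A OE (97.2% against 33.8% of all genes) and 1 was lower. The median log2 fold change was 4.19, or 4.86 with the 10 genes without a read in EV at their bound. Those 10 passed the filter only through KIF20A OE and could not come out lower, so the share is a description only. Of the 38 listed, 18 had no more than 3 reads in every EV library. With a mean of at least 10, 23 were tested. All tested members of the clusters HOXA (11), HOXB (9) and HOXC (8) were higher, and in HOXD 7 were higher and HOXD1 was lower. HOXD13 had 0, 0 and 0 rescaled CPM in EV and 140.2, 141 and 127 in KIF20A OE, at least 775-fold higher. HOXB9 was already read in EV, at 22.1, 11.2 and 26.9, and reached 321, 373 and 264, a rise of 3.99 ± 0.29. HOXA5 was at 0.394, 0.274 and 0.0644 in EV and 68.9, 101 and 96.3 in KIF20A OE, and HOXC4 at 0.618, 0.219 and 0.709 in EV and 48.6, 44.8 and 47.5 in KIF20A OE. HOXD1, at one end of its cluster, fell from 17.2, 9.14 and 24.0 in EV to 0.331, 0.392 and 0.0478 in KIF20A OE. HOXD3 and HOXD4, its neighbours, rose by only 1.42 ± 0.22 and 0.87 ± 0.23, while HOXD9 to HOXD11 and HOXD13 rose by over 5 on the log2 scale.

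Kidney development factors and neuronal genes were higher in most tested members. Of 17 kidney factors tested, 13 were higher and 3 lower (median 2.61, the same with the 5 genes without a read in EV at their bound). FOXD1, a factor of the renal stroma, had no read in EV and 85.1, 91.7 and 68.2 in KIF20A OE, at least 466-fold higher, and SALL2 rose (6.80 to 16.9 in EV and 61.6 to 70.0 in KIF20A OE). PAX8 and OSR1, both needed for the early kidney, fell. PAX8 was at 17.5 to 30.8 in EV and 0.117 to 0.669 in KIF20A OE, and OSR1 at 43.6 to 45.8 in EV and 0.0478 to 0.716 in KIF20A OE, while PAX2, the relative of PAX8, was read only in KIF20A OE at 6.50 to 9.28. Of 14 neuronal genes tested, 9 were higher and 1 lower (median 3.61, or 4.24 with 5 genes without a read in EV at their bound). The median ran from 1.03 to 7.10 over all alternatives, with 5 to 12 called higher. Their summed level was 35.1, 97.0 and 211 rescaled CPM in EV and 432, 373 and 494 in KIF20A OE. NEFL, the light neurofilament, had no read in EV and was at least 405-fold higher in KIF20A OE, and TUBB2B rose by 4.52 ± 0.26 (range 50.1 to 63.9 in KIF20A OE). STMN2 and ELAVL3, further neuronal markers, stayed below 0.24 in all 6 libraries.

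Growth factor receptors and their partners moved in both directions. Of 22 receptor tyrosine kinases tested, 8 were higher and 12 lower (median -1.03, with -0.63 without the first EV library and -0.68 without rescaling). Taken over all alternatives, the median ran from -1.16 to -0.22, with 4 to 10 called higher and 9 to 12 lower. EGFR, the epidermal growth factor receptor, fell from 564, 692 and 488 in EV to 24.6, 28.8 and 28.6 in KIF20A OE, and EPHA2, an ephrin receptor, fell too (635 to 942 in EV and 18.2 to 29.3 in KIF20A OE). FGFR2 went from 0, 0 and 0.129 in EV to 62.9, 63.2 and 64.4 in KIF20A OE and FGFR3 from 0.787, 2.08 and 3.29 in EV to 62.7, 56.0 and 69.1 in KIF20A OE, both receptors of fibroblast growth factors. In the insulin-like growth factor axis 4 genes were higher and 10 lower of 15. IGFBP3 and IGFBP4, secreted binding proteins, fell. IGFBP3 was at 567 to 1235 in EV and 0.313 to 1.86 in KIF20A OE, IGFBP4 at 2379 to 3511 in EV and 6.55 to 13.1 in KIF20A OE, and IGFBP2 had no read in EV and 40.0 to 74.4 in KIF20A OE.

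**Figure D4:**
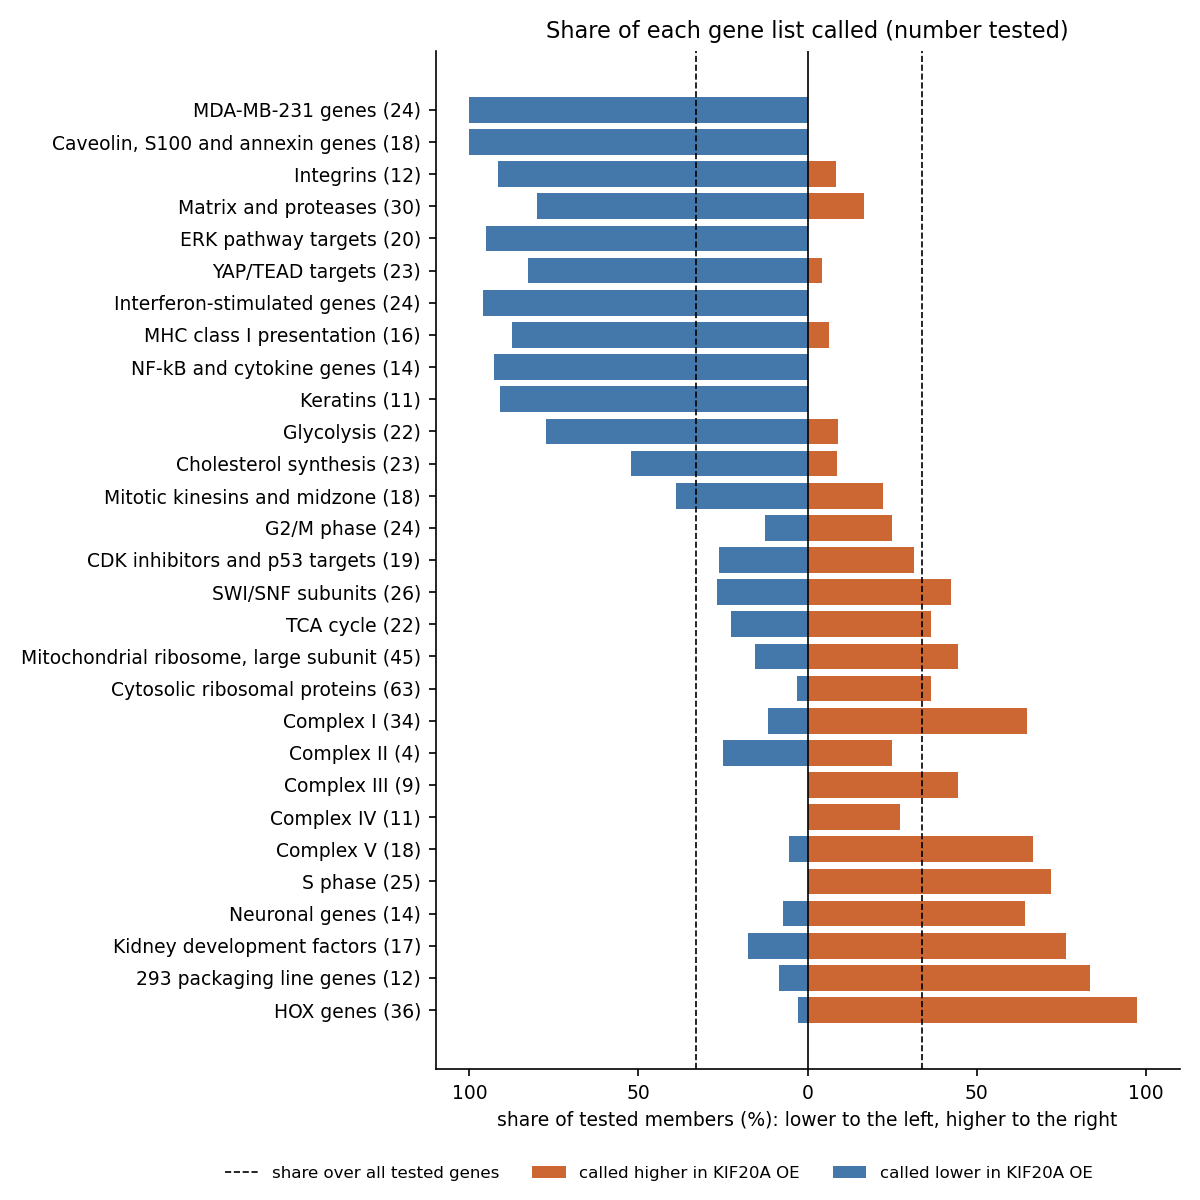
Share of the tested members of each gene list called higher (right) or lower (left) in KIF20A OE, with the number tested in brackets; the dashed lines mark the shares over all tested genes, 33.8% higher and 33.0% lower. Lists of adhesion, matrix, signalling and interferon genes reach far to the left, HOX, kidney and neuronal genes far to the right, and mitotic kinesin, CDK inhibitor and SWI/SNF genes have bars on both sides of 0 that end nearer to the dashed lines.

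Adhesion and matrix genes were lower in most tested members. Of 18 caveolin, S100 and annexin genes tested, all 18 were lower (median -4.12), against 33.0% of all genes. ANXA2, a calcium-dependent membrane binder, fell from 2062, 2286 and 1939 in EV to 246, 129 and 179 in KIF20A OE, and CAVIN1, the coat protein of caveolae, from 1335, 1266 and 1160.1 in EV to 31.0, 30.3 and 46.4 in KIF20A OE. Integrins, the receptors of matrix proteins, were lower in 11 of 12 (median -3.88). ITGB1, the shared beta chain, fell by 3.73 ± 0.17, ITGA3 by 7.14 ± 0.12 and ITGA6 by 5.34 ± 0.16, and ITGA4 was the one that rose (range 1.60 to 8.34 in KIF20A OE). Matrix and protease genes were lower in 24 and higher in 5 of 30 (median -3.29; 3 higher without the first EV library, by edgeR and by DESeq2). FN1, fibronectin, fell from 2374, 1363 and 1946 in EV to 25.1, 21.7 and 25.6 in KIF20A OE, and LAMA4, a laminin alpha chain, rose from 18.7, 19.9 and 18.2 in EV to 38.6, 66.8 and 53.2 in KIF20A OE.

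Targets of ERK and YAP signalling, both active in MDA-MB-231, were lower. Of 20 ERK pathway targets, 19 were lower and none higher, with a median of -4.73, or -5.16 with EREG, which had no read in KIF20A OE, at its bound. DUSP6, a phosphatase that ERK induces and that acts on ERK, fell from 447, 431 and 546 in EV to 0.496, 0.940 and 0.669 in KIF20A OE, and DUSP4 from 955, 775 and 649 in EV to 7.22, 4.35 and 4.59 in KIF20A OE. CCND1, cyclin D1, the partner of CDK4/6, fell from 1103, 1168 and 1550.1 in EV to 24.9, 21.6 and 55.2 in KIF20A OE. MYC was at 239, 318 and 181 in EV and 92.9, 197 and 206 in KIF20A OE and was not called. YAP/TEAD targets were lower in 19 and higher in 1 of 23 (median -2.34), with MYOF at 697 to 1149 in EV and 0.765 to 2.08 in KIF20A OE, and FOXF2 the one that rose, by 2.99 ± 0.28 (2 genes higher without rescaling or the first EV library).

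Innate immune and antigen presentation genes were lower in most tested members. Of 24 interferon-stimulated genes, 23 were lower and none higher (median -2.70). BST2, the virus tether tetherin, fell from 221, 149 and 208 in EV to 4.85, 2.47 and 6.02 in KIF20A OE, and IFITM3, which blocks virus entry, by 2.98 ± 0.17. NF-kB and cytokine genes were lower in 13 of 14 (median -2.70), and NFKBIA, the inhibitor of NF-kB, fell by 1.57 ± 0.21. MHC class I genes were lower in 14 and higher in 1 of 16 (median -1.65). HLA-E fell by 2.61 ± 0.19, while HLA-F rose from 0, 0.109 and 1.42 in EV to 24.2, 20.4 and 24.9 in KIF20A OE. HLA genes are near copies of each other, and how reads that fit several were counted is not given in the sources used here, so their levels are uncertain.

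Genes of DNA replication were higher in most tested members, while both shares of G2/M genes stayed below those of all genes. Of 25 S phase genes, 18 were higher and none lower (72.0% against 33.8%, median 0.84). MCM4, a subunit of the replicative helicase, rose from 191, 311 and 229 in EV to 558, 578 and 604 in KIF20A OE, CDT1, which loads it, by 2.13 ± 0.24, and CCNE1, cyclin E1, by 1.89 ± 0.24. RRM2 and TYMS, enzymes of nucleotide supply, were not called. Of 24 G2/M genes, 6 were higher and 3 lower with a median of 0.01 (11 higher, none lower and a median of 0.38 without rescaling; 3 higher without the first EV, the first KIF20A OE or the third KIF20A OE library, and 5 lower without the third EV library; the median ran from -0.16 without the first to 0.16 without the second EV library). Over all genes, 7055 of 15265 were higher and 3579 lower without rescaling. BIRC5, survivin, rose from 106, 187 and 148 in EV to 242, 308 and 292 in KIF20A OE and PLK1, a mitotic kinase, by 0.77 ± 0.19. CDK inhibitors and p53 targets gave 6 higher and 5 lower of 19, near the shares of all genes. CDKN1A, which encodes p21, was at 192, 157 and 265 in EV and 221, 75.1 and 220.2 in KIF20A OE without a call, MDM2, the ubiquitin ligase of p53, rose by 1.71 ± 0.18, and PLK2 fell by 3.29 ± 0.26.

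Subunits of OXPHOS, the respiratory chain and ATP synthase that the study examined with KIF20A, were taken by complex. Over complexes I to V, 42 of 76 nuclear-encoded subunits were higher (55.3% against 33.8%) and 6 lower; the median log2 fold change was 0.40. Without rescaling, 62 were higher, 1 was lower and the median was 0.76, against 0.37 for all genes. In that setting 7055 of 15265 genes were higher and 3579 lower. Complex I, the NADH dehydrogenase, had 22 higher and 4 lower of 34 (median 0.49). Complex V, the ATP synthase, had 12 higher and 1 lower of 18 (median 0.56). In complex III, the cytochrome c reductase, 4 of 9 were higher (44.4%, median 0.34). In complex IV, the cytochrome c oxidase, 3 of 11 were higher (27.3%, median 0.24). In complex II, the succinate dehydrogenase, 1 was higher (25%) and 1 lower of 4. The higher shares of complexes II and IV lay below the 33.8% of all genes. Without rescaling, 9 members each of complexes III and IV were called higher, 3 of complex II, and 1 of complex I was lower, with medians of 0.84, 0.56, 0.71, 0.60 and 0.93 for complexes I to V. Without the third EV library the median of complex IV was 0.13.

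Members of 1 complex did not move together. In complex I, NDUFB9 rose (31.7 to 39.1 in EV and 101 to 121 in KIF20A OE) and NDUFB10 from 76.1, 80.5 and 76.9 in EV to 187, 241 and 214 in KIF20A OE, while NDUFS4, an accessory subunit near the NADH site, fell from 69.3, 62.4 and 65.2 in EV to 35.8, 32.5 and 36.8 in KIF20A OE and NDUFC2 fell too (18.7 to 19.6 in EV and 9.20 to 13.5 in KIF20A OE). In complex II, SDHC, a membrane anchor, rose by 0.63 ± 0.12 and SDHD, the other anchor, fell by 0.71 ± 0.17 (adjusted p = 0.0902 by limma with Benjamini-Hochberg adjustment without rescaling). In complex IV, COX5A rose by 1.03 ± 0.11 and COX4I1 by 0.66 ± 0.14. In complex V, ATP5F1B, the catalytic beta subunit, rose from 564, 707 and 553 in EV to 813, 901 and 855 in KIF20A OE, ATP5F1A, its alpha partner, was not called at 482 to 558 in EV and 412 to 506 in KIF20A OE, and ATP5F1E fell by 0.49 ± 0.11, a call lost without rescaling.

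The study chose 6 OXPHOS genes from these samples and its KIF20A sgRNA samples, so their direction here is not independent evidence. Its cutoffs were a fold change and a p-value not stated as adjusted, unlike the adjusted p used here. It reported SDHA as induced by overexpression and also measured these genes by RT-qPCR. UQCRH, a hinge protein of complex III, rose from 46.0, 55.9 and 51.2 in EV to 70.7, 72.6 and 76.8 in KIF20A OE, and NDUFB8 of complex I from 1.86, 1.31 and 1.22 in EV to 4.46, 4.35 and 3.92 in KIF20A OE. ATP5MF of complex V rose from 1.01, 1.31 and 1.42 in EV to 2.70, 4.62 and 2.06 in KIF20A OE, a call lost without the first EV library (limma with Benjamini-Hochberg adjustment, adjusted p = 0.0609), and its reads may be shared with the overlapping readthrough gene ATP5MF-PTCD1. COX8A (43.2, 51.5 and 38.9 against 56.2, 56.0 and 55.7), COX5B (60.0, 72.5 and 59.9 against 70.9, 76.9 and 79.8) and SDHA (12.4, 11.2 and 12.1 against 13.1, 14.3 and 13.0) were not called. All 3 passed without rescaling, and COX8A also by DESeq2 and without the second EV library (adjusted p = 0.0398 and 0.0265).

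**Figure D5:**
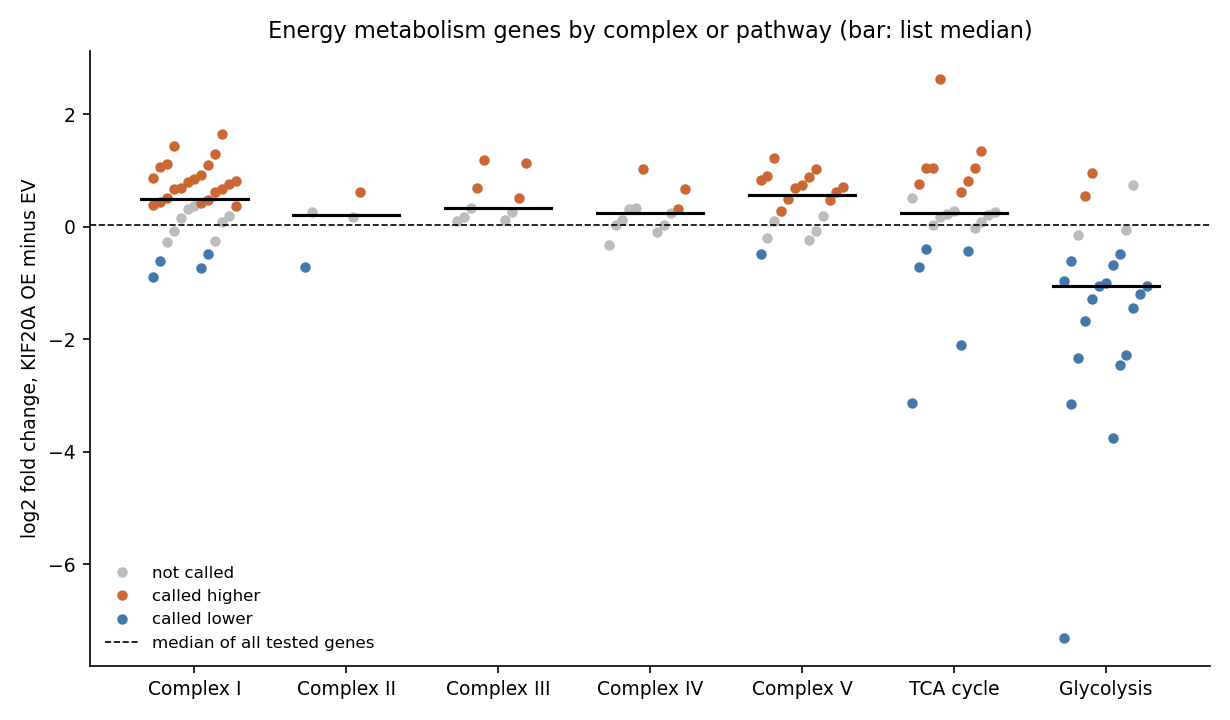
Log2 fold change of each tested gene of OXPHOS complexes I to V, the TCA cycle and glycolysis, with a bar at the median of each list and a dashed line at the median of all tested genes (0.03). Complex I and complex V sit above the dashed line with medians of 0.49 and 0.56, and glycolysis sits below it with a median of -1.05.

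Glycolysis was lower and had the largest shift of the energy pathways examined. Of 22 genes, 17 were lower (77.3% against 33.0%) and 2 higher, with a median of -1.05 (14 lower, 3 higher and -0.69 without rescaling). SLC2A1, the glucose transporter GLUT1, fell from 1533, 864 and 672 in EV to 161, 82.3 and 94.0 in KIF20A OE, LDHA, which makes lactate, from 2715, 2572 and 2023 in EV to 1182, 1190.3 and 1109.8 in KIF20A OE, and ENO1, enolase, from 4075, 4377 and 3284 in EV to 1992, 1822 and 1816 in KIF20A OE. LDHB, the form of lactate dehydrogenase that favours pyruvate, rose from 63.2, 95.9 and 68.1 in EV to 148, 145 and 144 in KIF20A OE. PFKP, a phosphofructokinase of platelets, fell by 2.45 ± 0.30, and PFKM, its muscle form, rose by 0.54 ± 0.13. In the TCA cycle 8 genes were higher and 5 lower of 22 (median 0.24; 15 higher, 2 lower and 0.61 without rescaling, and a median of 0.15 without the third EV library). Citrate synthase (CS) rose by 1.04 ± 0.13, and OGDH, the oxoglutarate dehydrogenase, and PC, pyruvate carboxylase, fell by 2.10 ± 0.15 and 3.14 ± 0.21. OGDHL, a relative of OGDH, was among the genes found only in KIF20A OE, at 28.5 to 29.6.

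Proteins of the mitochondrial large ribosome were higher in 20 and lower in 7 of 45 (median 0.28; 4 lower without the second EV library, 3 lower and a median of 0.64 without rescaling, and a median of 0.16 without the third EV library), with MRPL37 up by 1.45 ± 0.13 and MRPL14 down by 1.15 ± 0.14. Cytosolic ribosomal proteins were higher in 23 and lower in 2 of 63 (median 0.20; 0.57 without rescaling and 0.084 without the third EV library). The higher count was 49 without rescaling and 10 to 19 with any 1 library left out, the lowest without the third KIF20A OE library, and the lower count reached 7 without the third EV library. RPS2 rose from 1066, 1140.0 and 787 in EV to 3017, 2406 and 3048 in KIF20A OE. Of 12 genes of mitochondrial biogenesis, 5 were higher and 2 lower (1 lower without rescaling or the second EV library); POLRMT, the mitochondrial RNA polymerase, rose by 1.16 ± 0.16, and PPARGC1A, the coactivator PGC1α, fell (4.16 to 7.67 in EV and 0.606 to 1.25 in KIF20A OE). Cholesterol synthesis genes were lower in 12 and higher in 2 of 23 (median -0.54; 9 lower, 3 higher and -0.23 without rescaling), with SQLE, squalene epoxidase, up by 1.45 ± 0.24.

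SWI/SNF subunits, which the study examined as partners of KIF20A, were higher in 11 and lower in 7 of 26 (median 0.21; 15 higher, 5 lower and 0.58 without rescaling, and a median of 0.13 without the third EV library). SMARCA4, the ATPase BRG1, was at 412, 383 and 398 in EV and 311, 374 and 345 in KIF20A OE and was not called, nor was ARID1A at 147, 177 and 174 in EV and 171, 163 and 144 in KIF20A OE. SMARCB1, a core subunit, rose by 0.84 ± 0.11, SMARCD3 by 2.73 ± 0.26 (range 3.61 to 8.12 in EV), and ACTL6A, an actin-like subunit, fell by 1.21 ± 0.15. Among DNA methylation and Polycomb genes 10 were higher and 6 lower of 23 (median 0.07; 3 lower and 0.43 without rescaling, and medians from 0.03 to 0.24 with a library left out, the lowest without the second EV and the highest without the third KIF20A OE library). TET1, which oxidizes methylcytosine, rose (4.32 to 6.18 in EV and 38.5 to 44.6 in KIF20A OE), CBX2, a Polycomb reader, by 2.55 ± 0.28, and PHF19, an accessory factor of Polycomb complex 2, fell by 2.09 ± 0.17.

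Genes used for stem-like cells split. Of 15 tested, 6 were higher and 6 lower, with a median of -0.20 that turned to 0.17 without rescaling and was -0.51 without the second KIF20A OE library. This median was not stable: over all alternatives, some of which test other members, it ran from -2.56 to 0.50, with 3 to 9 called higher. SOX2 rose from 0.450, 0.930 and 4.83 in EV to 11.0, 11.6 and 14.6 in KIF20A OE, POU5F1, which encodes OCT4, was at 1.24, 1.15 and 0.838 in EV and 2.20, 1.37 and 2.29 in KIF20A OE without a call, and NANOG was not in the table. The POU5F1 call was gained without rescaling and without the second KIF20A OE library (limma with Benjamini-Hochberg adjustment, adjusted p = 0.0126 and 0.0191). CD24, the marker whose absence is used with CD44 to sort breast cancer stem cells, varied widely in EV at 19.5, 4.92 and 83.1 and was at 1.65, 0.470 and 1.24 in KIF20A OE. Among the aldehyde dehydrogenases, ALDH1A2 rose from 0, 0.109 and 0 in EV to 52.1, 114 and 38.6 in KIF20A OE and ALDH1A3 by 1.44 ± 0.43, the latter lost without the first or the third KIF20A OE library (adjusted p = 0.0524 and 0.0678), and ALDH1A1 stayed below 2.5 in all 6 libraries. HMGA1, a chromatin architectural factor, fell from 3037, 4008 and 3863 in EV to 267, 376 and 279 in KIF20A OE. EMT factors and cadherins were higher in 6 and lower in 7 of 15, with a median of 0.04. Across the alternatives the median ran from -2.23 to 0.34, with 3 to 6 called higher and 5 to 7 lower. ZEB1 fell by 2.23 ± 0.14, and CDH2, the neural cadherin, TWIST1 and SNAI2 rose by 4.51 ± 0.22, 3.48 ± 0.26 and 1.13 ± 0.19.

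Differences were not spread evenly over the chromosomes. The median log2 fold change was 0.94 over 370 tested genes of chromosome 22, where 68.9% were called higher, and 0.60 on chromosome X and 0.51 on chromosome 16. The lowest medians were -0.44 on chromosome 18, with 47.9% called lower, and -0.35 on chromosome 20. The other autosomes lay between -0.24 and 0.35. Genes of a chromosome are not independent, and copy number was not measured.

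Within the groups, libraries were close for most genes. Over 8383 genes with at least 10 rescaled CPM in all 6 libraries, the median ratio of highest to lowest library was 1.26 in EV and 1.22 in KIF20A OE, and 324 and 129 genes exceeded 2-fold. KIF20A ranked 3 among the 8383 genes by this ratio in KIF20A OE and 2886 in EV. Of the 129 genes, 77 were lowest in the second KIF20A OE library, the one with the least KIF20A. Among the other widest genes, NDRG1, a stress-induced gene, had 446, 73.2 and 230.3 in KIF20A OE, GPRC5A, an orphan receptor, 84.5, 14.3 and 46.5, and JUN, an AP-1 factor, 2335, 686 and 1102. HMOX1, heme oxygenase, was highest in the second library. With 3 libraries, an order shared with KIF20A is a description only.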

How the data were processed

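RNA was sequenced from cells labelled as MDA-MB-231 with an empty vector or with KIF20A overexpression, and the authors deposited CPM per gene for each library. Per the submitters' processing notes, reads were aligned to GRCh38 with HISAT2 2.0.5 and counted with featureCounts 1.5.0-p3; the annotation and strand setting are not given in the sources used here. The authors' methods name DESeq2 for their own comparisons. Every CPM value was a whole number of reads within 0.01 read, so reads were recovered. The sgCtrl values came from a deposited table of normalized signal (reads divided by size factors), were normalized separately and were used for levels only. Tables of Hs578T and HCC70 cells were not used here, and 0 columns of per-sample values lacked a label.

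CPM values were divided by median-of-ratios factors, and log2(rescaled CPM + 1) was tested by limma 3.58.1 in R 4.3.3 for genes whose mean over the 6 libraries was 1 or more, with Benjamini-Hochberg adjustment and a threshold of 0.05. Depths were 15971297 to 22182293 reads, and a value for 3 reads or fewer is limited by counting. Groups followed the labels. The methods give the libraries as biological triplicates. The alternatives were no rescaling, TMM factors, a pseudocount of 0.1, no filter, a mean of at least 10, a replicate block, each library left out, and edgeR 4.0.16 and DESeq2 1.42.0 on the recovered reads. The test was checked on simulated counts with 200 genes changed. Coordinates of genes come from GENCODE release 44 and promoter sequences from RefSeq, matched by symbol or identifier (23732 of 23792 genes had a position).

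The gene lists and the comparison itself were chosen with earlier results of these data known. The genes named were KIF20A and the 5 markers, the 10 largest rises and 10 largest falls (called, without overlap and with a mean of at least 10 in 1 group), up to 3 called members in each direction of each list, the genes the study names, and the genes of 9p21. Genes used to infer sex were left out. Other list members named for their role, and the genes named for their spread between libraries, were chosen after their values were seen. Some genes that the rule names are not reported here.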

Additional observations from a re-analysis of the deposited data

How the results depend on the processing

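The count of genes called was 10634 without rescaling, 10142 with TMM factors, 10040 with a pseudocount of 0.1, 12464 without a filter, 9893 by edgeR and 10147 by DESeq2, which left 29 adjusted p-values undefined. With a mean of at least 10, 7087 genes were called, 3173 of them higher. Leaving out 1 library gave 8909 to 9792. Over OXPHOS subunits the median was 0.76 and 1 was lower without rescaling, and the median ran from 0.35 to 0.50 with a library left out. With at least 1 rescaled CPM, 698 genes were found only in KIF20A OE and 327 only in EV. Of 195 named genes, 157 kept their call under every alternative in which they were tested, 34 lost it under at least 1, 4 gained one and 0 reversed. All 14 alternatives tested 178 of the 195, and 143 of these kept their call in all of them; the others all fall below a mean of 10, and TUBB3 was also untested without the first or the third EV library. By edgeR and DESeq2, whose fitted folds of genes without a read depend on the prior count, the medians were 10.7 and 10.5 for the HEK293 list, 6.71 and 6.70 for HOX genes, 5.36 and 5.32 for kidney factors, 7.05 and 7.10 for neuronal genes and 10.3 and 9.55 for 9p21. The leukocyte list had no member with a mean of at least 10, so that setting gave no median. The cause of these changes was not tested, except that stricter filters test fewer genes.

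Replicate numbers did not pair the libraries: same-numbered deviations correlated at 0.0359, 0.0555 and 0.0149, although every library correlated best with its own number, a hint from the data and not the design. With the replicate block, 9940 genes were called, 5048 higher and 4892 lower, and KIF20A had an adjusted p of 0.00714 (limma with Benjamini-Hochberg adjustment).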
